A study of Mus musculus with 15 samples.

Results

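The genes described here are the segments from which antibodies and T cell receptors are built. They were chosen by annotation alone: every gene of the deposited table whose Ensembl biotype names an immunoglobulin or T cell receptor segment, leaving out pseudogenes. The rule found 120 of 27174 genes, of which 70 are immunoglobulin segments (56 V, 4 J and 10 constant region genes) and 50 are T cell receptor segments (25 V, 18 J and 7 constant region genes). Only 11 of the 120 passed the filter on low scores that every test required, and the other 109 are described by their values.

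RNA was sequenced from brain microvessels of adult wild-type mice, labelled BL6/57, in 5 groups of 3 libraries, each library a pool of 3 mice. Sham mice were operated on and received no tumour. The contralateral group is the region without tumour of tumour-bearing mice given control IgG. Untreated tumour is the tumour-bearing region of mice given control IgG. Dual therapy is that region in mice given Aflibercept-AMG386: a decoy receptor for VEGF together with a peptibody directed against the angiopoietins. Triple therapy is the same with anti-PD1, an antibody against an inhibitory receptor of T cells. Vessels of tumour-bearing mice were taken 21 days after transplantation. Which tumour cells were used is not stated in the labels, and a vessel preparation holds whatever blood and perivascular cells stay with it.

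An antibody is made of heavy and light chains, and most T cell receptors of an alpha and a beta chain, the rest of a gamma and a delta chain. In a developing lymphocyte, one V segment is cut and joined to a J segment, with a D segment between them in some loci, and splicing then links the joined unit to a constant region. A B cell first uses Ighm and Ighd, the constant regions of IgM and IgD. After class switching it uses an IgG, IgE or IgA constant region instead, and the plasma cells that descend from B cells devote much of their RNA to secreted antibody. Each lymphocyte clone carries its own V and J choice, while constant regions are shared by many clones and reflect the amount of receptor RNA. Different clones can use the same V or J segment, so the score of a segment does not identify a clone. Healthy brain holds few lymphocytes.

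Values are the authors' normalised scores, rounded to whole numbers, which are not reads. One read was worth an estimated 0.656 to 1.86 score units, depending on the library, and estimated depth ran from 6365519 reads (sham replicate 2) to 18323670 (triple therapy replicate 3). A score equal to 3 reads was 1.97 to 5.58, so single-digit scores rest on a handful of reads. Genes of the mitochondrial chromosome took 10.5% to 36.1% of the scores, with the highest share in untreated tumour replicate 2. Markers of endothelium (5 of 5 genes above 0 throughout; summed score 27389 to 43120 per library) were high in all libraries, as the label brain microvessels implies. Because these are bulk samples, fewer cells of a type and less RNA per cell cannot be told apart. The labels call the libraries biological replicates of pooled mice, and the p-values measure the spread between those pools.

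Near its 3′ end a V segment holds the codon for the conserved cysteine that opens the hypervariable junction. The 3′ ends of 6 immunoglobulin V segments with high scores in single libraries are shown, because that is where a rearranged V segment joins the rest of its chain. Each line gives 75 coding bases of GRCm38 on the coding strand, with the last in-frame cysteine codon in capitals. The heavy chain segments Ighv1-53 (chr12:115158403-115158477, minus strand), Ighv1-82 (chr12:115952538-115952612, minus) and Ighv1-26 (chr12:114788372-114788446, minus) belong to the same V family.
Ighv1-53: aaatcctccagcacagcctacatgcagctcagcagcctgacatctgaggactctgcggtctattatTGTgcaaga
Ighv1-82: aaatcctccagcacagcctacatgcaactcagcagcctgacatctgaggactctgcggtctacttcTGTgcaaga
Ighv1-26: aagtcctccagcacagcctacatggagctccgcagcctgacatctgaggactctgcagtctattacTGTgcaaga

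The kappa light chain segments Igkv14-111 (chr6:68256795-68256869, plus strand), Igkv10-96 (chr6:68631963-68632037, minus) and Igkv19-93 (chr6:68736297-68736371, minus) come from different V families and reach further past the cysteine. A beta chain segment of the T cell receptor, Trbv16 (chr6:41152156-41152230, plus), is given beside them.
Igkv14-111: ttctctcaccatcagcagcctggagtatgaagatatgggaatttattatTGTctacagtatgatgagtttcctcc
Igkv10-96: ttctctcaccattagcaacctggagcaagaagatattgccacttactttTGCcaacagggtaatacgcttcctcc
Igkv19-93: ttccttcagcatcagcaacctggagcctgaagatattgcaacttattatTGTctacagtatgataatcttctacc
Trbv16: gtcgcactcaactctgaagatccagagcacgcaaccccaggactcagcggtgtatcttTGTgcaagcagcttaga

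An in-frame cysteine codon lay in the last 36 coding bases of 55 of 56 immunoglobulin V segments and of 25 of 25 T cell receptor V segments. Related segments share long stretches, and that bears on how far a score belongs to the gene it is listed under. Ighv1-53 and Ighv1-26 were identical at 86.04% of 351 aligned coding bases. Only 42.4% of the 50-base windows of Ighv1-53 and 51% of those of Ighv1-26 occurred in no other receptor segment of GENCODE M21. The share was 85.2% for Ighv1-82, 67.4% for Igkv10-96 and 100% for Igkv14-111, Igkv19-93 and Trbv16. The median over the 56 immunoglobulin V segments was 77%, against 99.7% over the 25 T cell receptor V segments. Alpha V segments were often lower, at 24.9% for Trav7-4 and 39.4% for Trav8-1. Of the 10 alpha V segments only Trav13n-4 (86.7%) and Trav19 (100%) lay above 77%. Heavy, kappa and alpha V scores are therefore uncertain within families.

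Vessels outside the tumour held little receptor RNA, and vessels of all 3 tumour groups held more. The 70 immunoglobulin segments together scored 49, 62 and 73 in sham and 93, 55 and 77 in contralateral vessels. They scored 219, 274 and 798 in untreated tumour, 305, 182 and 363 after dual therapy, and 1515, 322 and 946 after triple therapy. Every tumour library was above every sham and contralateral library, and the tumour groups overlapped one another. The 50 T cell receptor segments scored 26, 26 and 13 in sham and 31, 30 and 25 in contralateral vessels. Their sums were 127, 111 and 183 in untreated tumour, 193, 139 and 152 after dual therapy, and 160, 182 and 100 after triple therapy. The tumour groups again lay above the others without overlap. They also overlapped one another. Over the tumour libraries the T cell receptor sums ran from 100 to 193 and the immunoglobulin sums from 182 to 1515. No test is given for sums over the members.

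**Figure D1:**
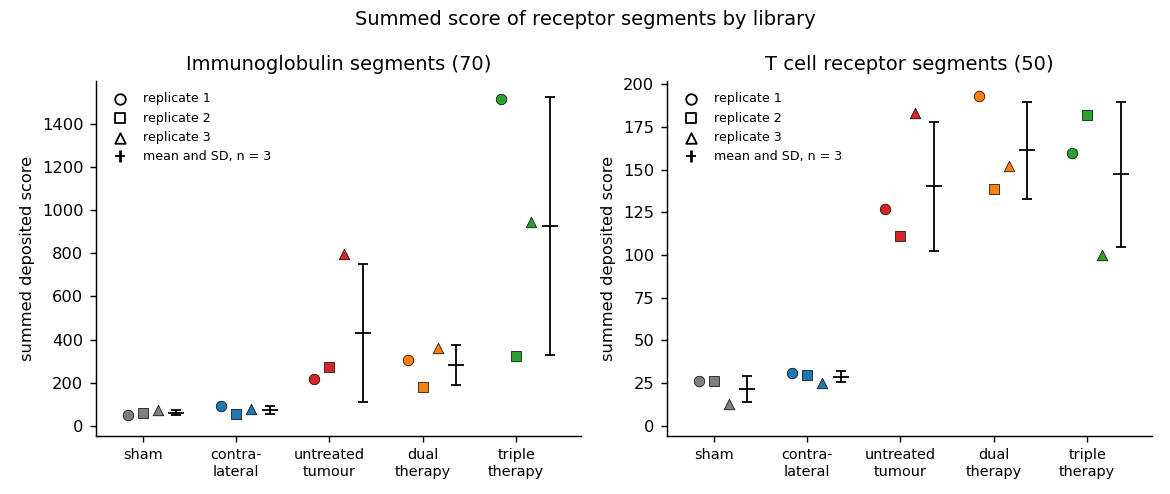
Summed deposited score of the 70 immunoglobulin segments (left) and the 50 T cell receptor segments (right) in each library, by group, with the mean and SD of 3 libraries beside the points. The 9 tumour libraries lie above the 6 others in both panels, and the spread among tumour libraries is wider for immunoglobulin (182 to 1515) than for T cell receptor segments (100 to 193).

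The number of different segments moved with the sums. Of 120 segments, 14, 14 and 10 were above 0 in the sham libraries and 16, 14 and 13 in the contralateral ones. In untreated tumour 53, 33 and 69 were above 0, after dual therapy 58, 29 and 46, and after triple therapy 77, 61 and 77. Over the 3 libraries of a group, 24 segments were seen in sham, 26 in contralateral, 89 in untreated tumour, 77 after dual and 107 after triple therapy. A total of 82 segments were listed at 0 in all 6 sham and contralateral libraries, and 15 were above 0 in 1 library only. All 120 were above 0 in at least 1 library, so these 82 had a score in tumour libraries alone. Of all genes of the table, 83.2% (dual therapy replicate 2) to 91.4% (triple therapy replicate 2) were above 0 in a library. Depth differs between libraries, and its part in these numbers was not tested. Sham replicate 1, with an estimated 14690952 reads, had 14 segments above 0, and untreated tumour replicate 1, with 9219163, had 53.

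Ighm, the constant region of IgM (chromosome 12, 113418558 to 113422730, minus strand), was the segment with most score in every sham and contralateral library. It scored 36, 48 and 57 in sham, 64, 45 and 61 in contralateral vessels, 90, 180 and 178 in untreated tumour, 161, 144 and 166 after dual therapy, and 241, 147 and 165 after triple therapy. The lowest tumour library, at 90, was above the highest contralateral one, at 64, and treated and untreated tumour overlapped. Mean scores were 56.7 ± 10.2 (SD, n = 3) in contralateral vessels and 149 ± 51.4 in untreated tumour. On the log2(score + 1) scale used for all fold changes, Ighm rose by 1.33 ± 0.27 (SE) in untreated tumour against contralateral vessels (limma, Benjamini-Hochberg adjusted p = 6.54e-04) and by 1.60 ± 0.27 against sham (adjusted p = 8.77e-05).

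Igkc, the constant region of kappa light chains (chromosome 6, 70726435 to 70726966, plus strand), moved over a far wider range. Its scores were 2, 2 and 7 in sham, 6, 2 and 5 in contralateral vessels, 41, 32 and 164 in untreated tumour, 47, 9 and 85 after dual therapy, and 367, 54 and 176 after triple therapy. The largest of these corresponds to an estimated 368 reads. No tumour library was as low as a control library, but libraries of a single tumour group differed several-fold. Igkc rose by 3.61 ± 0.78 against contralateral vessels (limma adjusted p = 1.14e-03) and by 3.88 ± 0.78 against sham (adjusted p = 5.10e-04). In limma's voom, a count model run on approximate reads (scores divided by the worth of 1 read), both calls were lost (adjusted p = 0.145 and 0.138).

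The switched heavy chain genes were close to 0 outside the tumour. Ighg2c, a constant region of IgG (chromosome 12, 113285325 to 113288932), scored 5, 4 and 0 in sham, 1, 3 and 2 in contralateral vessels, 16, 4 and 88 in untreated tumour, 3, 4 and 5 after dual therapy, and 187, 10 and 190 after triple therapy. Replicate 2 of untreated tumour lay within the sham range, and so did all 3 dual therapy libraries. The test called a rise of 2.77 ± 1.05 against contralateral vessels (limma adjusted p = 0.0401) and of 2.66 ± 1.05 against sham (adjusted p = 0.0442). Each of these calls was lost with a pseudocount of 5 (limma adjusted p = 0.0590 and 0.0739), with quantile normalization (0.0560 and 0.0733), without a mean-variance trend (0.0816 and 0.0868) and in voom (0.494 and 0.488). The call against contralateral vessels was also lost without contralateral replicate 1 (0.111), 2 (0.0545) or 3 (0.0788) and without untreated tumour replicate 1 (0.0703) or 3 (0.229, rise 1.68). The call against sham was lost in a fit of the 6 libraries alone (0.0581), without sham replicate 2 (0.0535) or 3 (0.201), and without untreated tumour replicate 1 (0.0749) or 3 (0.250, rise 1.57).

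Ighg2b, a second IgG gene (chromosome 12, 113302965 to 113307933), scored 1 in sham replicate 1 and 0 in the other sham and all contralateral libraries. It scored 14, 0 and 45 in untreated tumour, 11, 0 and 6 after dual therapy, and 157, 7 and 102 after triple therapy. The difference of untreated tumour from contralateral vessels missed the threshold (limma adjusted p = 0.0515), and it passed without untreated tumour replicate 2 (adjusted p = 0.00278). Ighg2b and Ighg2c were identical at 88.17% of 1209 aligned coding bases, and 95.9% and 94.5% of their 50-base windows were their own, so most reads can be told apart. Ighg1 scored 5, 0 and 3 in untreated tumour, 3, 0 and 0 after dual therapy and 40, 14 and 1 after triple therapy. Ighg3 did not exceed 9 in any library.

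Igha, the constant region of IgA (chromosome 12, 113254830 to 113260236), scored at most 1 in sham and contralateral libraries. It scored 4, 8 and 54 in untreated tumour, 22, 3 and 10 after dual therapy, and 102, 31 and 39 after triple therapy. It rose by 3.42 ± 0.84 against contralateral vessels (limma adjusted p = 0.00294) and by 3.09 ± 0.84 against sham (adjusted p = 0.00539); voom gave adjusted p = 0.0510 and 0.0997. Ighd, the constant region of IgD carried by naive B cells, differed from these: 0, 2 and 4 in sham, 11, 3 and 5 in contralateral vessels, 8, 11 and 14 in untreated tumour, 14, 3 and 21 after dual and 7, 7 and 9 after triple therapy. Contralateral and untreated vessels overlapped. It rose against sham (2.25 ± 0.72, limma adjusted p = 0.0151) and was not called against contralateral vessels (0.83 ± 0.72, adjusted p = 0.374). The call against sham was lost without sham replicate 1 (adjusted p = 0.0905) or without untreated tumour replicate 3 (0.0507).

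**Figure D2:**
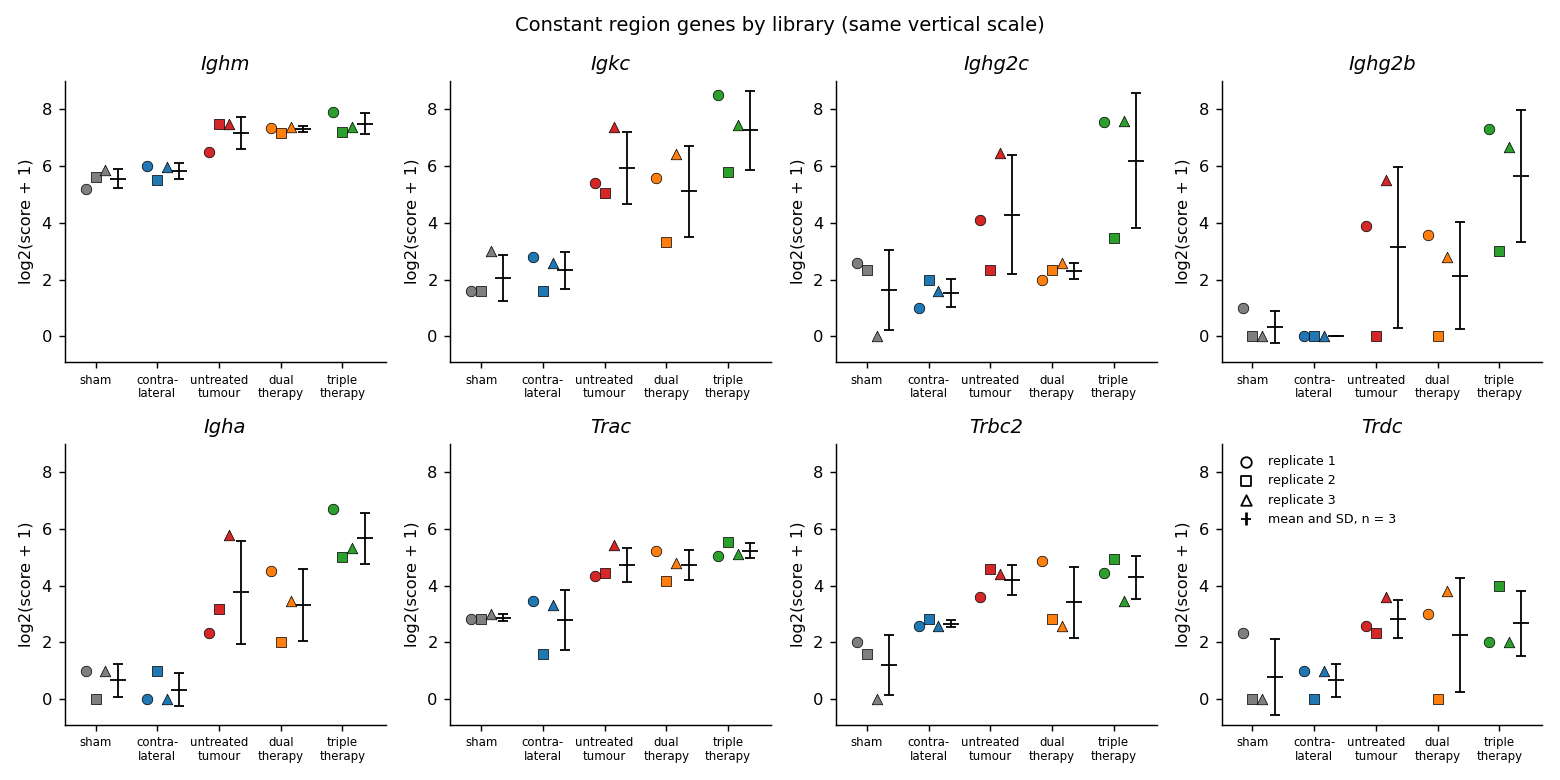
log2(score + 1) of 8 constant region genes in each library, all on one vertical scale, with the mean and SD of 3 libraries to the right of the points. Igkc spreads widely within every tumour group, with scores of 47, 9 and 85 after dual therapy. Ighg2c spreads widely within untreated tumour and triple therapy and scores 3, 4 and 5 after dual therapy.

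The composition of heavy chain RNA differed between libraries of the same group. Ighm took 83.7%, 88.9% and 91.9% of the summed heavy constant score in sham and 83.1%, 86.5% and 89.7% in contralateral vessels, where the sums were only 43 to 77. It took 64.3%, 88.7% and 46.5% in untreated tumour, 74.2%, 93.5% and 78.3% after dual therapy, and 32.7%, 68.1% and 32.0% after triple therapy. The 4 IgG genes together took 27.1%, 1.97% and 35.8% in untreated tumour, 9.22%, 2.60% and 7.08% after dual therapy, and 52.6%, 14.4% and 58.6% after triple therapy. IgM RNA therefore made up most of the heavy chain score in all dual therapy libraries, and IgG RNA most of it in 2 of 3 triple therapy libraries. In each tumour group, replicate 2 had the largest Ighm share. These shares are not corrected for gene length, and they are given without a test.

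**Figure D3:**
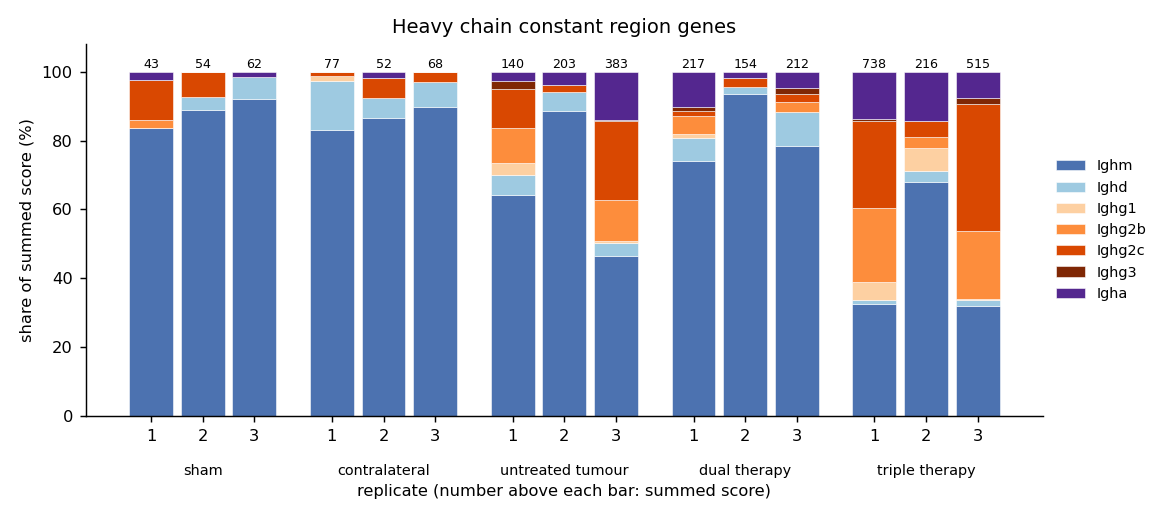
Share of each heavy chain constant region gene in the summed score of the 7 genes, 1 bar per library, with that summed score printed above the bar. Ighm fills most of the bars of sham, contralateral and dual therapy vessels, and IgG genes (orange to brown) fill 52.6% and 58.6% of triple therapy replicates 1 and 3.

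Per kilobase of exon, Igkc and Ighm were the most abundant constant regions in every tumour group. Mean scores per kilobase in untreated tumour were 149 for Igkc, 79.2 for Ighm, 29.2 for Trac, 27.2 for Ighg2c and 26.0 for Trbc2. In contralateral vessels the order was different, with Ighm at 30.1, Igkc at 8.15, Trbc2 at 7.71 and Trac at 7.49. After triple therapy Igkc reached 374, while Ighm and Ighg2c stood next to each other at 97.7 and 97.3. After dual therapy Ighm was at 83.2, close to Igkc at 88.4, and Ighg2c at 3.02. In untreated tumour the gap between Igkc and Ighm was smaller than the spread of Igkc between libraries, and Trac, Ighg2c and Trbc2 lay within one another's spread. The lambda constant regions Iglc1 and Iglc2, of a light chain that few mouse antibodies use, did not exceed 8 in any library.

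V segment scores are given by germline gene and do not identify V-J joins. The 27 heavy chain V segments together scored 2 in each sham library and 0 in each contralateral library. They scored 14, 5 and 96 in untreated tumour, 12 in each dual therapy library, and 189, 25 and 93 after triple therapy. The 27 kappa V segments scored 0 in all sham libraries and 7, 1 and 0 in contralateral vessels. They scored 22, 15 and 133 in untreated tumour, 17, 7 and 22 after dual therapy, and 202, 18 and 139 after triple therapy. Heavy and kappa V sums were thus high in the same 3 libraries: untreated tumour replicate 3 and triple therapy replicates 1 and 3. The same libraries had the highest scores of Igkc and Ighg2c.

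In triple therapy replicate 1 and untreated tumour replicate 3, a single segment made up much of the heavy V sum. Large top shares also occurred at low sums, such as 83.3% of a sum of 12 in dual therapy replicate 2. Ighv1-53 scored 82 in triple therapy replicate 1 and 1 each in dual therapy replicate 1 and triple therapy replicate 3, and was listed at 0 in the other 12 libraries. That score was 43.4% of the heavy V sum of its library. Ighv1-82 scored 41 in untreated tumour replicate 3, 4 in triple therapy replicate 1 and 1 in triple therapy replicate 3, and took 42.7% of the heavy V sum of untreated tumour replicate 3. Ighv1-26 scored 13 and 18 in triple therapy replicates 1 and 3 and 1 in dual therapy replicate 1. It led the heavy V segments of triple therapy replicate 3 with 19.4%. Ighv3-6 scored 19 in untreated tumour replicate 3 and 4 and 3 in triple therapy replicates 2 and 3, while Ighv9-3 was spread over 6 tumour libraries, with 13 at most. All 5 were listed at 0 in the 6 libraries without tumour.

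Among kappa V segments, Igkv10-96 led the kappa V sum of dual therapy replicate 2 and of triple therapy replicates 1 and 3, with 18.3% and 23.7% in the latter 2. It scored 5 and 17 in untreated tumour replicates 2 and 3, then 2, 6 and 2 after dual therapy, and 37 and 33 in triple therapy replicates 1 and 3. Igkv14-111 scored 48 in untreated tumour replicate 3 and 20, 5 and 22 after triple therapy, and was listed at 0 in all dual therapy libraries. Igkv19-93 scored 36 and 10 in triple therapy replicates 1 and 3 and 2 in dual therapy replicate 1. Igkv15-103 reached 16 in untreated tumour replicate 3 and 13 in triple therapy replicate 1, and Igkv4-55 scored 26 in untreated tumour replicate 3 and 3 or less elsewhere. Over all 27 segments of each class, a segment was above 0 in a median of 3 libraries, for heavy and kappa V segments alike. Only Igkv10-96 and Igkv14-111 passed the filter, and neither was called in any comparison (limma adjusted p = 0.144 and 0.216 for untreated tumour against contralateral vessels). The lambda segments Iglv3 and Iglv1 reached 11 and 6.

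**Figure D4:**
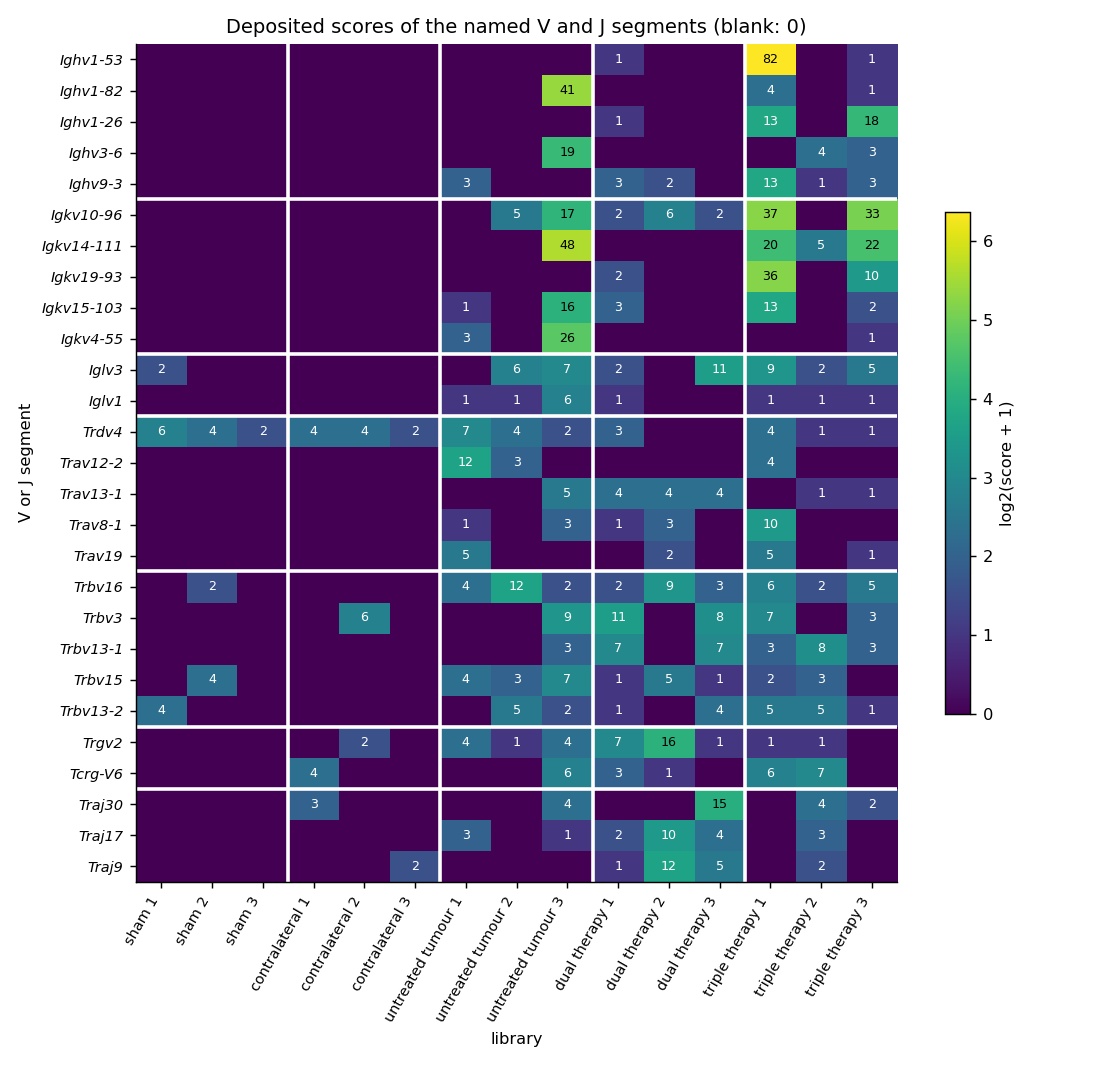
Deposited scores of 27 named V and J segments (rows, by class) in the 15 libraries (columns, by group); colour is log2(score + 1), numbers are scores and blank cells are 0. Heavy and kappa V segments concentrate in untreated tumour replicate 3 and triple therapy replicates 1 and 3, whereas T cell receptor segments are low and spread over all tumour libraries.

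Immunoglobulin V segments were concentrated in single libraries to a degree that T cell receptor V segments were not. Over the 56 immunoglobulin V segments, the library with the highest score held a median of 67.9% of a segment's score over all 15 libraries, and it held more than 50% for 42 of them. Over the 25 T cell receptor V segments the median was 41.2%, and 9 exceeded 50%. For the 17 constant region genes the median was 33.3%. The top library was a triple therapy library for 38 of 56 immunoglobulin V segments, an untreated tumour library for 13 and a dual therapy library for 5. For T cell receptor V segments these numbers were 6, 11 and 8. Low scores by themselves raise the share of a top library, and the highest score of a segment had a median of 8 in the first class and 6 in the second. The sums of the classes were also unlike. Over the tumour libraries, immunoglobulin V segments together scored 19 to 401, with the most in triple therapy replicate 1, and T cell receptor V segments 26 to 68. A library with a high sum tends to be the top library of many segments, and its part in these medians was not tested. The difference between the classes is a description, with no test.

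Trac, the constant region of the alpha chain (chromosome 14, 54220521 to 54223097, plus strand), scored 6, 6 and 7 in sham, 10, 2 and 9 in contralateral vessels, 19, 21 and 42 in untreated tumour, 36, 17 and 27 after dual therapy, and 32, 45 and 34 after triple therapy. All tumour libraries were above all others, and the tumour groups overlapped. Trac rose by 1.95 ± 0.50 in untreated tumour against contralateral vessels (limma adjusted p = 0.00423) and by 1.86 ± 0.50 against sham (adjusted p = 0.00508). Its coordinates differ between the deposited table and GENCODE M21, so its value per kilobase is approximate.

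Trbc2, one of a pair of beta chain constant regions (chromosome 6, 41546730 to 41548352), scored 3, 2 and 0 in sham, 5, 6 and 5 in contralateral vessels, 11, 23 and 20 in untreated tumour, 28, 6 and 5 after dual therapy, and 21, 30 and 10 after triple therapy. It rose against sham (2.99 ± 0.67, limma adjusted p = 0.00134) and missed the threshold against contralateral vessels (1.53 ± 0.67, adjusted p = 0.0766). Its partner Trbc1 scored 3, 6 and 13 in untreated tumour, 10, 5 and 0 after dual therapy and 7, 4 and 7 after triple therapy, and did not pass the filter. The split of beta chain reads between both genes is uncertain, because they were identical at 95.56% of 518 coding bases. In their first exon, of 375 bases, a single base differs: C260A, counted from 1 at the start of the Trbc1 coding bases, with the base of Trbc1 first. Coding bases 200 to 319 around it are shown to make that plain, with the differing base in capitals (GRCm38, plus strand; Trbc1 chr6:41538417-41538536, Trbc2 chr6:41546929-41547048).
Trbc1: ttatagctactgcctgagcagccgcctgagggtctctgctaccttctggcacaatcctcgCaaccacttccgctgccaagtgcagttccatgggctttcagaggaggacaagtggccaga
Trbc2: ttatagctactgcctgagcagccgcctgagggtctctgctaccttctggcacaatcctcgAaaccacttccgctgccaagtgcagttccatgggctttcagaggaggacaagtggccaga

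The gamma and delta chains, used by a small T cell lineage, were low throughout. Trdc, the delta constant region (chromosome 14, 54142851 to 54148868), scored 4, 0 and 0 in sham, 1, 0 and 1 in contralateral vessels, 5, 4 and 11 in untreated tumour, 7, 0 and 13 after dual therapy, and 3, 15 and 3 after triple therapy. It was not called against contralateral vessels (2.16 ± 0.98, limma adjusted p = 0.0839) or sham (2.06 ± 0.98, adjusted p = 0.0940). The gamma constant region Tcrg-C2 was listed at 0 in all sham and contralateral libraries and scored 7, 8 and 3 in untreated tumour, 3, 10 and 4 after dual therapy and 6, 10 and 0 after triple therapy. Tcrg-C1 reached 9 and Tcrg-C4 6; Tcrg-C1 and Tcrg-C2 were identical at 97.4% of 500 aligned bases. Trdv4 stood out among the V segments by its presence in every sham and contralateral library, with scores of 6, 4, 2, 4, 4 and 2, and of 7, 4 and 2 in untreated tumour. It scored 3, 0 and 0 after dual and 4, 1 and 1 after triple therapy, within or below the range of the control libraries.

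T cell receptor V segments were many and low. The 25 together scored 10, 10 and 2 in sham, 8, 12 and 2 in contralateral vessels, 51, 36 and 68 in untreated tumour, 60, 46 and 52 after dual therapy, and 62, 49 and 26 after triple therapy. Every tumour library was above every control library. The 10 alpha V segments were listed at 0 in all 6 sham and contralateral libraries and summed to 3 to 22 in the tumour libraries. Among beta V segments, Trbv16, whose end is printed above, was above 0 in all 9 tumour libraries, with 12 in untreated tumour replicate 2 as its highest score. Trbv3 reached 11, Trbv13-1 8, Trbv15 7 and Trbv13-2 5. Among alpha V segments, Trav12-2 reached 12 in untreated tumour replicate 1 and Trav8-1 10 in triple therapy replicate 1, while Trav13-1 (5 at most) and Trav19 (5) stayed lower. Only 70.8%, 39.4% and 54.6% of the 50-base windows of Trav12-2, Trav8-1 and Trav13-1 were their own, so these scores are uncertain. The gamma segments Trgv2 and Tcrg-V6 reached 16 and 7.

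J segments, which are short, were highest in sum after dual therapy. The 18 T cell receptor J segments scored 0, 2 and 1 in sham, 6, 6 and 4 in contralateral vessels, 27, 8 and 25 in untreated tumour, 42, 55 and 49 after dual therapy, and 18, 24 and 12 after triple therapy. The dual therapy libraries did not overlap the other groups. Traj30 scored 15 in dual therapy replicate 3 and 4 at most elsewhere. Traj17 scored 2, 10 and 4, and Traj9 1, 12 and 5, after dual therapy. None of the 22 J segments passed the filter, so no test stands behind this order, and in dual therapy replicate 2 Trac scored 17, the lowest of all tumour libraries. Without that library the dual therapy sums of 42 and 49 still exceeded the highest of the other groups, 27.

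A J segment encodes the phenylalanine or tryptophan and the glycines that close the junction. Traj30 and Traj9 are printed with that motif in capitals, spelled TTTGGNNNNGG, TTCGGNNNNGG or TGGGGNNNNGG and read on the coding strand only (GRCm38; Traj30 chr14:54189866-54189924, Traj9 chr14:54209393-54209450, both plus strand).
Traj30: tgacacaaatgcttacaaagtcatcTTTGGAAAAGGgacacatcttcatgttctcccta
Traj9: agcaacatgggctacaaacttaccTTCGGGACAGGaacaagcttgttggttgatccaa

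The motif was found in 20 of the 22 J segments, which were 38 to 66 bases long. It was found in 82.1% of the 84 J genes of GENCODE M21 and in 1.53% of the 60-base windows of the V and constant coding sequences.

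Of the 11 segments tested, 5 rose in untreated tumour against contralateral vessels (Ighm, Igkc, Igha, Ighg2c and Trac) and none fell. Of all 19668 genes tested, 42.5% were called in that comparison and 21.1% rose. Against sham, 7 of the 11 rose, with Ighd and Trbc2 added, where 46.6% of all genes were called and 23.3% rose. Most tested segments passed the filter only through their tumour scores, so the counts are not set against those shares. In voom on approximate reads 2 were called against contralateral vessels (Ighm and Trac) and 4 against sham (Ighm, Trac, Trbc2 and Ighd). Between contralateral and sham vessels 0 of the 11 were called (limma; 1 at an unadjusted p below 0.05, Trbc2), where 0.432% of all genes were called, and voom called none. All comparisons with untreated tumour share its 3 libraries.

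Neither treatment changed a tested segment against untreated tumour past the threshold. Dual therapy gave 0 calls in limma (0 at an unadjusted p below 0.05), where 22.3% of all genes were called. The difference was 0.14 for Ighm (95% interval -0.43 to 0.70), -0.0070 for Trac (-1.06 to 1.04) and -0.82 for Igkc (-2.47 to 0.82). For Ighg2c it was -1.99 (-4.19 to 0.20, limma adjusted p = 0.185). Without untreated tumour replicate 2, Ighg2c was called as lower after dual therapy (-2.98, adjusted p = 0.0486).

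Triple therapy also gave 0 calls in limma (1 at an unadjusted p below 0.05, Igha), where 32.2% of all genes were called. Igha differed by 1.91 ± 0.84 (limma adjusted p = 0.0900) and was called in voom (2.08, adjusted p = 0.0246). Igkc differed by 1.32 (95% interval -0.32 to 2.97), Ighg2c by 1.90 (-0.29 to 4.09) and Trac by 0.50 (-0.56 to 1.55). These values rested on single libraries. Without untreated tumour replicate 3, the untreated library with most immunoglobulin, 4 segments were called as higher after triple therapy: Igha (2.92, limma adjusted p = 0.0125), Ighg2b (3.71, 0.0430), Ighg2c (2.99, 0.0438) and Igkv14-111 (0.00652; no fold, since the remaining untreated libraries are at 0). Without triple therapy replicate 2, the one with least immunoglobulin, 3 were called: Ighg2b (3.85, limma adjusted p = 0.0305), Ighg2c (3.27, 0.0167) and Igkv10-96 (2.92, 0.0415).

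Triple against dual therapy, the comparison for the added anti-PD1, gave no call in limma (5 at an unadjusted p below 0.05), where 0.869% of all genes were called and voom called none of the 11. Ighg2c scored 187, 10 and 190 against 3, 4 and 5, without overlap, a difference of 3.90 ± 1.05 (limma adjusted p = 0.0859). Ighg2b differed by 3.53 ± 1.26 (adjusted p = 0.189), Igha by 2.34 ± 0.84 (0.192) and Igkc by 2.15 ± 0.78 (0.202). Igkv14-111, listed at 0 after dual therapy, had an adjusted p of 0.134. Ighm (0.20, 95% interval -0.37 to 0.77) and Trac (0.50, -0.55 to 1.56) stayed closer. Without triple therapy replicate 2, Ighg2c alone was called (5.26, limma adjusted p = 0.0219).

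Genes that work with the T cell receptor rose in tumour vessels. Of 14 partners and signalling genes of the T cell receptor, 12 rose in untreated tumour against contralateral vessels and none fell, with a median change of 2.85 against 0.0083 over all genes, of which 21.1% rose. Cd3e, a signalling chain of the T cell receptor complex, scored 1, 0 and 3 in sham, 9, 2 and 10 in contralateral vessels, 122, 98 and 123 in untreated tumour, 133, 88 and 129 after dual and 164, 135 and 86 after triple therapy. It rose by 4.05 ± 0.50 (limma adjusted p = 4.73e-06). Its tumour libraries lay in one narrow range, as those of Trac did. Cd8a, the co-receptor of cytotoxic T cells, rose by 2.30 ± 0.53 (adjusted p = 0.00196) and Cd4, which helper T cells and some macrophages carry, by 1.68 ± 0.38 (adjusted p = 0.00175). The kinase Zap70 scored 55 to 110 in sham and 63 to 159 in untreated tumour and was not called (adjusted p = 0.711). None of the 14 rose against untreated tumour after either treatment, and 1 fell after each: Lcp2, an adaptor of the receptor's signal (-1.13 ± 0.27, limma adjusted p = 0.00657, and -1.31 ± 0.27, 0.00134). Of all genes 22.3% and 32.2% were called in those comparisons.

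Of 10 partners of the B cell receptor, 9 were tested and 5 rose against contralateral vessels, with a median change of 1.32, where 21.1% of all genes rose. The chains that carry the receptor's signal differed from each other. Cd79b scored 0, 1 and 0 in contralateral vessels and 12, 20 and 11 in untreated tumour, a rise of 3.56 ± 0.75 (limma adjusted p = 8.61e-04), and fell after dual therapy, with scores of 7, 1 and 0 (-2.56 ± 0.75, adjusted p = 0.0198). That fall was lost without untreated tumour replicate 2 (limma adjusted p = 0.0606), dual therapy replicate 2 (0.0554) or dual therapy replicate 3 (0.0854). It was also lost without both of these replicates 2 (0.115) and in a fit of the 6 libraries alone (0.0899). Cd79a scored 34, 9 and 18 in contralateral vessels and 15, 10 and 28 in untreated tumour, which overlapped (-0.13 ± 0.58, adjusted p = 0.882). Cr2, a complement receptor of B cells, scored 71, 43 and 74 in contralateral vessels, 311, 146 and 198 in untreated tumour, a mean of 98.3 after dual therapy, and 83, 118 and 73 after triple therapy. All treated libraries were below all untreated tumour libraries. It rose in untreated tumour (1.75 ± 0.28, limma adjusted p = 7.67e-05) and fell after dual (-1.09 ± 0.28, 0.0107) and triple therapy (-1.21 ± 0.28, 0.00331); the fall after dual therapy was lost without untreated tumour replicate 1 (0.0739) and in voom (0.0551). Ms4a1, the B cell surface protein CD20, scored 15, 11 and 34 in untreated tumour and rose by 2.44 ± 0.71 against contralateral vessels (adjusted p = 0.00964), a call lost without untreated tumour replicate 3 (0.0539) and in voom (0.0987). After treatment Ms4a1 scored 26, 37 and 16 (dual) and 39, 10 and 37 (triple). Dual therapy replicate 2, with the highest Ms4a1 of its group, had the lowest Igkc, at 9.

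Jchain, the joining chain of secreted IgM and IgA, spread over the tumour libraries as Igkc did. It scored 3, 2 and 0 in sham, 1, 6 and 3 in contralateral vessels, 47, 7 and 68 in untreated tumour, 18, 6 and 11 after dual therapy, and 124, 20 and 62 after triple therapy. In each tumour group its lowest library was replicate 2, and its 2 highest scores fell in triple therapy replicate 1 and untreated tumour replicate 3. Jchain rose by 2.96 ± 0.82 against contralateral vessels (limma adjusted p = 0.00685), a call that voom did not make (adjusted p = 0.201). Of 9 genes of the secretion list, 7 were tested and 2 rose in that comparison, a share near the 21.1% of all genes that rose: Jchain and the transcription factor Irf4 (2.42 ± 0.47, adjusted p = 4.04e-04). The defining plasma cell genes Mzb1 and Tnfrsf17 were at or near 0, with highest scores of 7 and 6. Sdc1, which many other cells also express, scored 130 to 206 in all libraries.

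**Figure D5:**
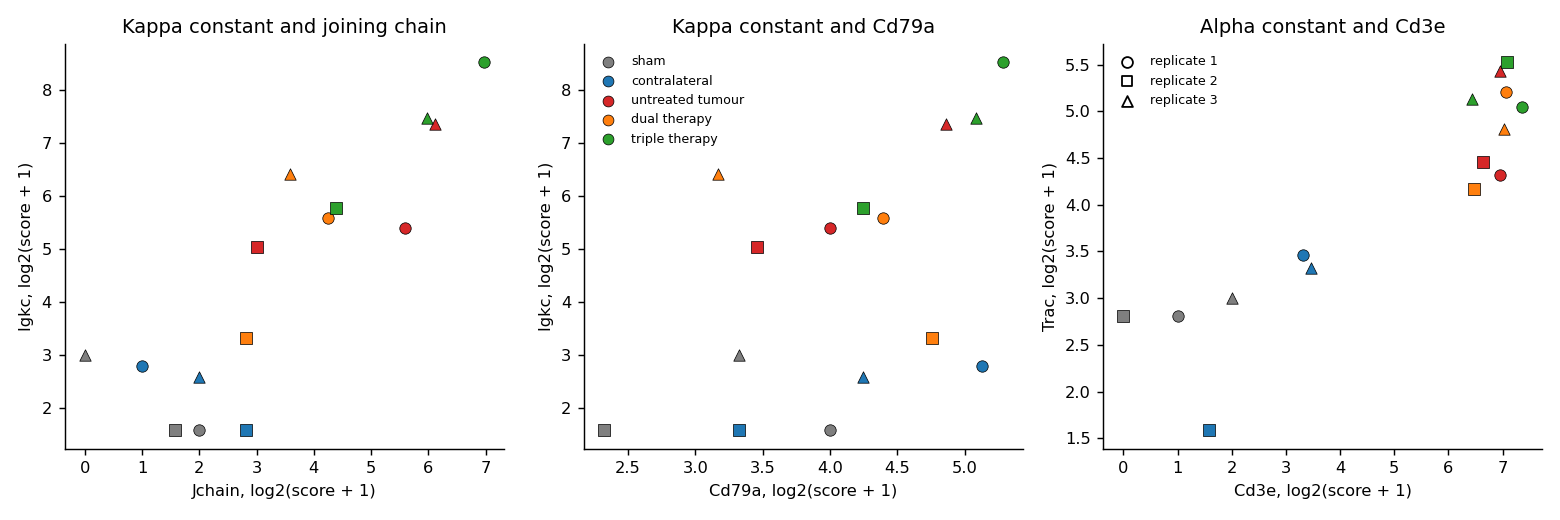
log2(score + 1) of Igkc against Jchain (left) and Cd79a (middle), and of Trac against Cd3e (right), 1 point per library (n = 15), coloured by group. Igkc and Jchain are both highest in triple therapy replicate 1 (scores 367 and 124), Cd79a of control libraries (4 to 34) overlaps that of tumour libraries (8 to 38), and Trac and Cd3e form a low and a high cluster.

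Receptors that bind antibody were measured as a further list of 8 genes, of which 7 were tested. Against contralateral vessels 5 rose and 1 fell in untreated tumour, where 42.5% of all genes were called and 21.1% rose. Fcgr4, a receptor for IgG on myeloid cells, scored 18, 4 and 1 in contralateral vessels and 130, 78 and 131 in untreated tumour (4.27 ± 0.72, limma adjusted p = 1.10e-04). Fcgrt, the receptor that recycles IgG in endothelium and other cells, was the one that fell. It scored 1319, 1444 and 1446 in contralateral vessels and 612, 847 and 816 in untreated tumour (-0.90 ± 0.15, adjusted p = 8.40e-05). After dual therapy it scored 1434, 1885 and 1321, and after triple therapy 1386, 1382 and 1870, both above untreated tumour without overlap (1.03 ± 0.15, adjusted p = 1.53e-04, and 1.03 ± 0.15, 5.08e-05). Some markers of other cell types moved with Fcgrt. All 4 pericyte markers fell in untreated tumour against contralateral vessels, while 2 of 4 rose after dual and 3 of 4 after triple therapy. Their summed score was mostly Rgs5, which scored 35227, 45216 and 39962 in contralateral vessels, 14627, 19529 and 17800 in untreated tumour, and 34040 to 47017 after treatment. Kcnj8, the marker that rose after neither, differed by -0.34 ± 0.32 after dual therapy (limma adjusted p = 0.487). Neuron markers summed to 6922 to 8421 in contralateral vessels, 1049 to 2578 in untreated tumour and 2648 to 6488 after treatment, and astrocyte markers to 4794 to 5918, 2665 to 3905 and 3499 to 9346. The macrophage marker Mrc1 scored 2353, 2141 and 2440 in contralateral vessels, 1277, 948 and 1052 in untreated tumour, and 1422 to 3045 after treatment. The other 3 microglia and macrophage markers, Aif1, Csf1r and Cx3cr1, went the other way and rose in untreated tumour against contralateral vessels (2.14, 0.60 and 1.08). In voom Csf1r was not called (adjusted p = 0.0988). After dual and after triple therapy 1 of the 4 rose and none fell. Pecam1, an endothelial marker, scored 9872 to 11709, 6625 to 9444 and 8840 to 10739 in the same order. Only 1 of 5 endothelial markers was called as lower in untreated tumour than in contralateral vessels. Cdh5 and Cldn5 were not called (limma adjusted p = 0.243 and 0.0800), though voom called both lower (0.0330 and 0.00251). Kdr had mean scores of 8079 in contralateral vessels, 8038 in untreated tumour, 7285 after dual and 5420 after triple therapy. The part of these markers in the Fcgrt result was not tested.

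Markers of several cell types differed between the same vessels as the segments, in a comparison where 42.5% of all genes were called and 21.1% rose. All 7 T cell markers rose in untreated tumour against contralateral vessels, and their summed score was 17 to 57 in the 6 control libraries and 279 to 589 in the 9 tumour libraries. Of 8 B cell markers, 7 were tested and 4 rose, with summed scores of 75 to 129 and 143 to 308. The 6 plasma cell markers, of which 4 were tested and 1 (Jchain) rose, summed to 307 to 418 and 381 to 575, mostly through Sdc1 and Prdm1, and 1 of 4 is near the share of all genes that rose. All 4 NK cell markers rose, with summed scores of 4 to 13 in the control libraries and 41 to 183 in the tumour libraries. Of 4 microglia and macrophage markers 3 rose and 1 fell, and the 1 neutrophil marker tested rose. All 3 neuron markers and 2 of 3 astrocyte markers fell. Their part in the segment scores was not tested. Of 8 recombination and mutation genes none passed the filter, and Rag2, a subunit of the recombinase, scored 6 at most.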

How the data were processed

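The authors deposited 1 table of normalised scores, whole numbers per gene and library, which are not read counts. The tools named in the submitters' processing notes are STAR 2.4.0a, featureCounts 1.4.5-p1 and, with no stated role, DESeq2, with GRCm38 (mm10) as the genome. Per the labels' protocols, 100 ng of DNase-treated total RNA entered a stranded total RNA kit. Strand use and the treatment of reads matching several segments in counting are not given in the sources used here; rearranged reads that span V, D and J may not align.

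Here, the score worth of 1 read was estimated from the gaps between low values. Scores were taken as log2(score + 1), and the 19668 of 27174 genes that reached 10 in 3 or more libraries were fitted in R 4.3.3 (limma 3.58.1, trended prior variance), with 1 mean per group over all 15 libraries (10 residual and 8.26 prior degrees of freedom). P-values were Benjamini-Hochberg adjusted over all genes tested in each of 6 comparisons, and called below 0.05. Members and gene lists were chosen with earlier results of these data known. Named segments are all constant region genes, the 5 V segments of highest mean per class, the 3 such J segments, and called segments; other list genes, library-leading segments and outlying libraries were named after their values were seen. Sequences and segment lengths come from GENCODE M21 (GRCm38), which held all 120 identifiers, 102 with the same coordinates; 494 of its genes are such segments. Tables of promoter and protein sequences held none of them. Alternatives were other pseudocounts, filters, scalings, tests and libraries left out; 1, without both replicates 2 named below, and a scaling of sums were added after seeing the data.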

Additional observations from a re-analysis of the deposited data

How the results depend on the processing

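Counts of called segments among those tested moved under some settings. Against contralateral vessels, untreated tumour had 5 calls, 12 with no filter on low scores (120 tested) and 2 in voom; against sham it had 7, 12 and 4. Dual therapy against untreated tumour went from 0 to 3 with no filter, and triple therapy from 0 to 7 with no filter and to 1 each with a pseudocount of 5, quantile normalization or voom (each Igha). The calls of both therapies with no filter were all segments that fail it, where many scores are 0. The share of all genes called with no filter is not given here, so the counts of that setting are not read as results about the segments. Leaving out 1 library in turn gave 4 to 6 calls against contralateral vessels, 5 to 8 against sham, 0 to 1 for dual therapy (1 without untreated tumour replicate 2), 0 to 4 for triple therapy and 0 to 1 for triple against dual therapy (1 without triple therapy replicate 2). Without both untreated tumour replicate 2 and dual therapy replicate 2, an alternative added after seeing the data, there were 7 and 9 calls for untreated tumour. The cause was not tested. Over the 11 tested segments, 1043 values under an alternative kept direction and side of the threshold, 26 passed it newly and 24 lost it, and none reversed. Summed scores after TMM scaling kept every tumour library above every control library, with 178 to 1549 against 48.9 to 92.6 for immunoglobulin.

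Replicate numbers are shared by the groups with no stated pairing. Deviations of same-numbered libraries of different groups correlated at -0.130 to 0.103 (30 pairs, median 0.0116). These pairs mix all groups. Contralateral and untreated tumour libraries, both from mice given control IgG, were not examined alone, so whether same-numbered ones share mice was not tested. The main fit treats all libraries as independent. With the replicate number as a block there were 6 calls for untreated tumour against contralateral vessels, 8 against sham and 0 in the other 4 comparisons; Ighg2b was the one added (adjusted p = 0.0144 and 0.0241).

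Scores under 10 rest on few reads, and V segments within a family share sequence.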

Other observations

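Traj14, the 1 receptor segment annotated as a pseudogene and left out, scored 5 in sham replicate 1, 3 in untreated tumour replicate 3, 6 in dual therapy replicate 1, and 7 and 1 in triple therapy replicates 1 and 3. Pou2af1, a co-activator of immunoglobulin genes in B cells, scored 11, 27 and 13 in contralateral vessels, 5, 24 and 16 in untreated tumour, 55, 33 and 24 after dual therapy, and 42, 30 and 31 after triple therapy. It rose in triple therapy against untreated tumour (1.36 ± 0.50, limma adjusted p = 0.0453). That call was lost without any 1 of untreated tumour replicates 1 (0.254) and 3 (0.0543) and triple therapy replicates 1 (0.141), 2 (0.0731) and 3 (0.0864). The replicate block (0.0555), no filter (0.0624), no mean-variance trend (0.0562) and a fit of the 6 libraries alone (0.0788) also lost it. Pou2af1 missed the threshold in dual therapy (1.41 ± 0.50, limma adjusted p = 0.0504). It passed in limma with a pseudocount of 5 (0.0420), a minimum score of 20 (0.0475) or quantile normalization (0.0310), and in voom (0.0487). It also passed in limma without untreated tumour replicate 2 (0.0146), without dual therapy replicate 3 (0.0446) and without both replicates 2 of these groups (0.0283). Xbp1, a transcription factor of secretory cells that vessels also express, fell by 0.50 ± 0.14 after dual (limma adjusted p = 0.0132) and by 0.57 ± 0.14 after triple therapy (adjusted p = 0.00358). The call after dual therapy was lost without untreated tumour replicate 2 (limma adjusted p = 0.0558) or dual therapy replicate 3 (0.0522). It was also lost without both untreated tumour replicate 2 and dual therapy replicate 2 (0.096) and in a fit of the 6 libraries alone (0.0549).

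D segments, of which GENCODE M21 holds 19 for immunoglobulins and 4 for T cell receptors, were absent from the deposited table, so none is described here.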
